A study of Mus musculus with 7 samples.

Results

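The 16156 regions described here were intronic open chromatin regions (OCRs) that carried an ATAC-seq peak in each of 7 libraries of HPC7, a mouse hematopoietic progenitor cell line. They were chosen by the peaks themselves. Peaks of the 7 lists that overlapped by at least 1 bp were merged into 144931 OCRs, and an OCR was kept if it lay on an autosome and had a peak in all 7 lists. It also had to be under 1500 bp wide, lie inside a protein-coding gene of GENCODE M21, overlap no exon and lie more than 3 kb from any transcript start. Of the merged OCRs, 66979 had a peak in every list, 65686 of these were autosomal and 50285 were under 1500 bp. A protein-coding gene held 28136 of them, 21179 overlapped no exon, and 16156 remained beyond 3 kb from a start.

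ATAC-seq marks accessible DNA by the insertions of the Tn5 transposase. The libraries were made to define the open chromatin of HPC7 cells, which were grown with stem cell factor. All 7 form 1 group in the labels, which name no treatment, and each was described as coming from a culture batch of its own, so they are repeats of 1 line and not of animals. The names of single peaks contain EtOH in 4 lists (HPC7-5 to HPC7-8) and VD in the remaining 3. The labels do not explain these words, no groups were made from them, and any difference in treatment would be part of the spread between libraries given here. The lists held 84593 to 132852 peaks. All 10 progenitor genes checked, among them Kit, Gata2, Tal1 and Spi1, had a peak at a transcript start in every list, while 5 of 7 lymphoid, 2 of 5 neuronal, 3 of 4 liver and 3 of 4 muscle genes had none in any list.

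Introns hold many of the enhancers of mammalian genes, short stretches of DNA where transcription factors displace nucleosomes and act on a promoter at a distance. In blood progenitors such elements often carry sites for ETS factors such as PU.1 and FLI1, for RUNX1 and for GATA2, which can bind with the E-box factor TAL1 at a composite of a partial E-box and a GATA site. CTCF, a zinc finger protein at loop anchors, and the AP-1 factors bind motifs of their own.

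To show what the sequences at these summits look like, 200 bases around the summit are given on the plus strand of mm10 (GRCm38) for the strongest eligible OCR with each motif, which had to have under 10% repeat-masked bases. Capitals mark the motif on either strand. The motifs were CTCF's core, GAGGAA for ETS factors, AGATAA for GATA factors, TGTGGT for RUNX factors, TGANTCA for AP-1, and CTG followed after 9 bases by GATA for the composite. The windows were chr11:62613804-62614003 (Lrrc75a intron 2, CTCF), chr16:57391414-57391613 (Cmss1 and Filip1l, ETS), chr11:18970052-18970251 (Meis1 intron 7, GATA and ETS), chr2:41382772-41382971 (Lrp1b intron 20, composite), chr17:30519009-30519208 (Btbd9 intron 4, RUNX) and chr1:52722694-52722893 (Mfsd6 intron 1, AP-1). A further RUNX window, chr8:25074826-25075025 in Plekha2 intron 2, and the capitals for ETS in Meis1 were added after the values were seen.
Lrrc75a, CTCF: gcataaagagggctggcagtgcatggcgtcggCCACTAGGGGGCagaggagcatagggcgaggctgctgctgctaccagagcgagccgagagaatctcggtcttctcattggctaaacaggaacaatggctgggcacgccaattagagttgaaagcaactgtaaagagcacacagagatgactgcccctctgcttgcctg
Cmss1 and Filip1l, ETS: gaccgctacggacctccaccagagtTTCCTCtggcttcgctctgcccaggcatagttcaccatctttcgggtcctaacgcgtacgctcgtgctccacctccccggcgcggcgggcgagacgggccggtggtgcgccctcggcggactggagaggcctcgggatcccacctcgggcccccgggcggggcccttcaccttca
Meis1, GATA and ETS: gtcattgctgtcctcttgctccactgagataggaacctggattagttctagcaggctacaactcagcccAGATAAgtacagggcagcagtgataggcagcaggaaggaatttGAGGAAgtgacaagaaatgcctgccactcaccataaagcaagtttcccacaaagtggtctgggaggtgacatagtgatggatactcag
Lrp1b, composite: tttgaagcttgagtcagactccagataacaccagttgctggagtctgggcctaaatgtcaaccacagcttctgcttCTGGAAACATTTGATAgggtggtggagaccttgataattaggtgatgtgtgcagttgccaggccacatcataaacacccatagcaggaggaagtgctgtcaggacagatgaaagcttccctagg
Btbd9, RUNX: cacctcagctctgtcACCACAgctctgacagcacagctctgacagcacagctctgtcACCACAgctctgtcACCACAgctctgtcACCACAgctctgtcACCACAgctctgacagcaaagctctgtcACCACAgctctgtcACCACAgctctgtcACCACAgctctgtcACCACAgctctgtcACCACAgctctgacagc
Plekha2, RUNX: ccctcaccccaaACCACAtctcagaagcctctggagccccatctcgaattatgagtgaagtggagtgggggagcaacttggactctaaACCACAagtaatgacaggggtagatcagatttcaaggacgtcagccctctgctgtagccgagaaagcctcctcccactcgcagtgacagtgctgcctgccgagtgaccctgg
Mfsd6, AP-1: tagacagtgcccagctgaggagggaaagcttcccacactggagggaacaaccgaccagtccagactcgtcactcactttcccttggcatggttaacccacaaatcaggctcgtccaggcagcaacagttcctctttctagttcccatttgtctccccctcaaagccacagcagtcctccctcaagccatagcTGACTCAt
The Btbd9 window was a tandem array with 10 RUNX matches. In the Cmss1 and Filip1l OCR, 76.4% of the bases matched other places of the genome over at least 100 bases at 90% identity or more. It had no match to RefSeq's ribosomal RNA genes Rn18s-rs5 and Rn28s1, but the latter entry holds only 420 bases, so whether this OCR is ribosomal DNA-like was not settled.

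Intensity is the fold enrichment at the summit in the authors' lists, the reads at the summit over the background of that library. Over the members, the median intensity of a library was 8.31 ± 1.54 (SD, n = 7). HPC7-6 was lowest at 5.79, followed by HPC7-2 at 7.35, HPC7-7 at 7.86, HPC7-4 at 8.16, HPC7-5 at 9.05 and HPC7-1 at 9.47, and HPC7-8 was highest at 10.5. These medians lay at percentiles 47.7 to 68.4 of the same library's own list. Since the peaks chose the members, these levels are a description and carry no test.

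The values were whole multiples of 1 read within 0.02 reads in 100% of the peaks. This gave 36 to 71 reads at the median member's summit in 6 libraries and 201.5 in HPC7-1, whose background of 20.4 reads compared with 4.44 to 7.45 in the others. The fewest reads at any member's summit were 13 to 46. Total read depth is not in the lists.

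Intronic OCRs were found at all levels of recurrence, and those in every list were both the most numerous and the most intense. With the same limits on chromosome, width and position, 42923 OCRs were intronic in any number of lists. One list alone held 8656 of them, with a median intensity of 2.67, and the numbers for 2, 3, 4, 5 and 6 lists were 4761, 3493, 3097, 3110 and 3650. The OCRs in 6 lists had a median intensity of 4.40 against 8.30 for the members. Median width rose from 244 bp with 1 list to 621 bp with 7. Intensity also decides which peaks are listed, and the width of an OCR spans all its merged peaks. Both measures are therefore tied to the number of lists by the way OCRs were built, and they carry no test.

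**Figure D1:**
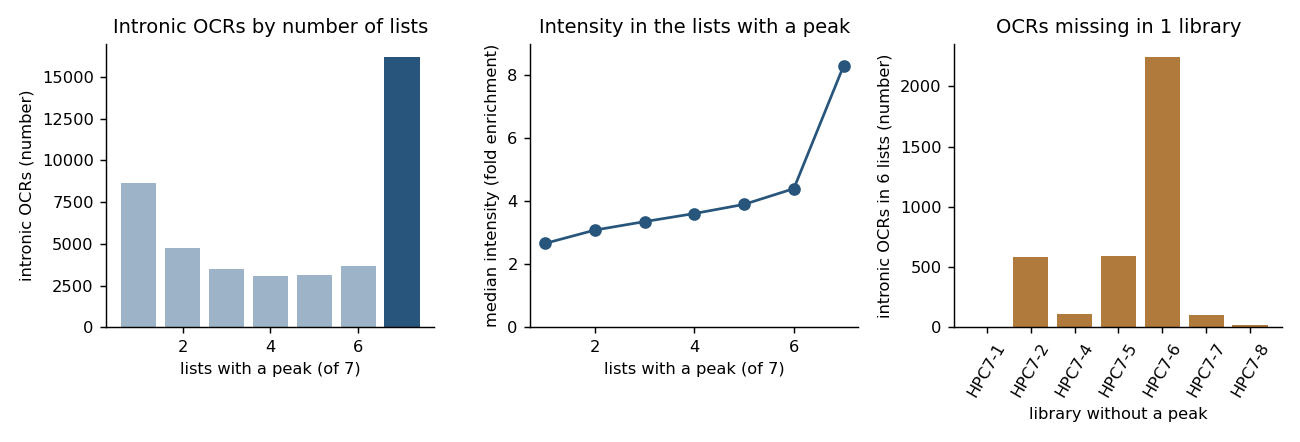
Number of intronic OCRs by the number of lists with a peak (left), their median fold enrichment in the lists that have the peak (middle) and, for the 3650 OCRs in 6 lists, the library without a peak (right). The 16156 members form the highest column, and HPC7-6 accounts for 2239 of the OCRs that miss 1 library.

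Which regions became members depended most on HPC7-6. Of the 3650 intronic OCRs in 6 lists, 2239 (61.3%) had no peak in HPC7-6, 590 none in HPC7-5 and 586 none in HPC7-2. HPC7-4 and HPC7-7 lacked 113 and 102, HPC7-8 lacked 16 and HPC7-1 lacked 4. HPC7-6 also had the shortest list, and HPC7-1 the longest. Without HPC7-6 the rule would give 18440 members.

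Members ranged in width from 200 to 1499 bp, and in mean intensity over the 7 libraries from 3.04 to 594, with a median of 8.30 and quartiles of 5.85 and 13.9. A mean intensity of at least 10 was reached by 6372 members (39.4%), of at least 50 by 381 and of at least 100 by 46, while 2160 lay under 5. The libraries ranked the members alike: Spearman's rho between libraries across the 16156 OCRs was 0.864 to 0.946 over the 21 pairs, a description across regions that share the libraries' backgrounds. After scaling each library to its median, the coefficient of variation of a member was 15.1% in the median. The summits called in the 7 libraries lay within 76 bp of each other for the median member.

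Members and non-members met at the limits of the rule as follows. The 3 members just under 1500 bp had mean intensities of 93.0, 9.81 and 41.6, and the 3 OCRs just over it had 39.3, 12.0 and 14.1. The 3 members just beyond 3 kb from a start had 68.8, 13.5 and 10.7, and those at 3 kb had 7.98, 4.86 and 11.1.

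The strongest member of all lay in intron 3 of Chl1, a neural cell adhesion molecule, at chr6:103648931-103649419. Its intensity was 594 ± 132 (SD, n = 7), with a lowest value of 370 in HPC7-1, a median of 633 in HPC7-2 and a highest value of 747 in HPC7-6. This order ran against that of the library medians, where HPC7-6 was the lowest. The next was in intron 2 of Cdk8, a kinase of the Mediator complex, at chr5:146260823-146261520, with 404 ± 65.0. The Cmss1 and Filip1l OCR had 375 ± 59.3 and the Btbd9 array 289 ± 85.4. The Mylip OCR, in the gene of a ubiquitin ligase of the LDL receptor, had 253 ± 61.5, and 76.5% of its bases were repeat-masked.

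Some of the strongest members shared sequence with other places of the genome. For the Chl1 OCR 50.1% of the bases matched elsewhere, and for Cdk8 16.6%. Another stretch of the same OCR was matched by 50.1% of the bases in Chl1 and 34.8% in Btbd9. Among the 10 strongest members, 3 had a match elsewhere, and among the 60 strongest 9 had one. Repeat-masked bases could not start a match in this search, so members without a match are not shown to be unique. The part of shared sequence in the intensities was not tested.

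The strongest member with no match elsewhere or inside itself and with under 10% repeat-masked bases was in intron 7 of Meis1, the homeodomain partner of Hox proteins in hematopoietic stem cells, at chr11:18969325-18970792. Its intensity was 169 ± 28.8, lowest in HPC7-6 at 118, with a median of 172 in HPC7-2 and highest in HPC7-4 at 201. The other 8 members of Meis1 lay between 3.94 and 46.0. The window printed above for Meis1 holds AGATAA from base 70 and GAGGAA from base 113. Other strong members were in Dlgap1 (173 ± 32.2), a postsynaptic scaffold protein, and in Fshr (151 ± 21.4), the receptor of follicle-stimulating hormone. These are genes of other tissues by their known roles.

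The weakest member, in the single intron of Fam89a at chr8:124743344-124744449, had 3.04 ± 0.23 and ranged from 2.78 to 3.50. The 4 next weakest, in Usp25, Crim1, Ttc7b and Acsl1, had means of 3.12 to 3.17.

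**Figure D2:**
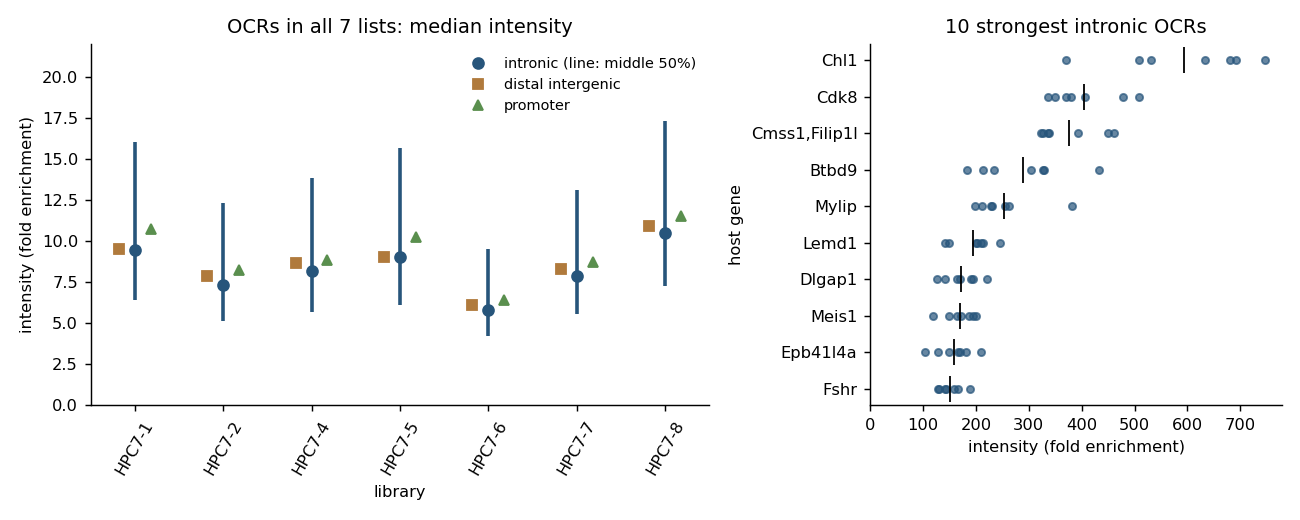
Left: median intensity (fold enrichment) per library of the intronic members, with a line between the quartiles, and of distal intergenic and promoter OCRs that also had a peak in all lists. Right: intensity of the 10 strongest members in each library (circles) with the mean (bar), labelled by host gene; HPC7-6 had the lowest median at 5.79 and HPC7-8 the highest at 10.5.

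Members were densest close to promoters and thinned out along long introns. The rule allowed 718 Mb of intron sequence, so there were 22.5 members per Mb, or 1 per 44.4 kb. Between 3 and 10 kb from the nearest start there were 29.4 per Mb, between 10 and 25 kb 26.1, between 25 and 50 kb 17.9, between 50 and 100 kb 12.0 and beyond 100 kb 5.83. The median member lay 11.6 kb from a start. Intensity did not follow: the mean of the library medians was 8.31 ± 1.53 at 3 to 10 kb and 8.46 ± 1.29 beyond 100 kb (SD, n = 7).

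First introns held 4713 members (29.2%), middle introns 9637, last introns 1125 and single introns 212. Another 469 lay in no intron of the longest coding transcript of the host gene. Density was 28.5 per Mb in first and 20.3 in middle introns. The difference between first and later introns was seen close to a start: with single introns counted as first, there were 36.1 against 26.1 members per Mb at 3 to 10 kb and 31.7 against 24.0 at 10 to 25 kb. It was smaller at 25 to 50 kb, with 19.4 against 17.6, and turned at 50 to 100 kb, with 10.6 against 12.5. Beyond 100 kb it was 6.51 against 5.81. Along the gene, divided into 10 equal bins, density was highest in bin 2 from the 5′ end at 25.8 per Mb and lowest in bin 10 at 19.1.

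**Figure D3:**
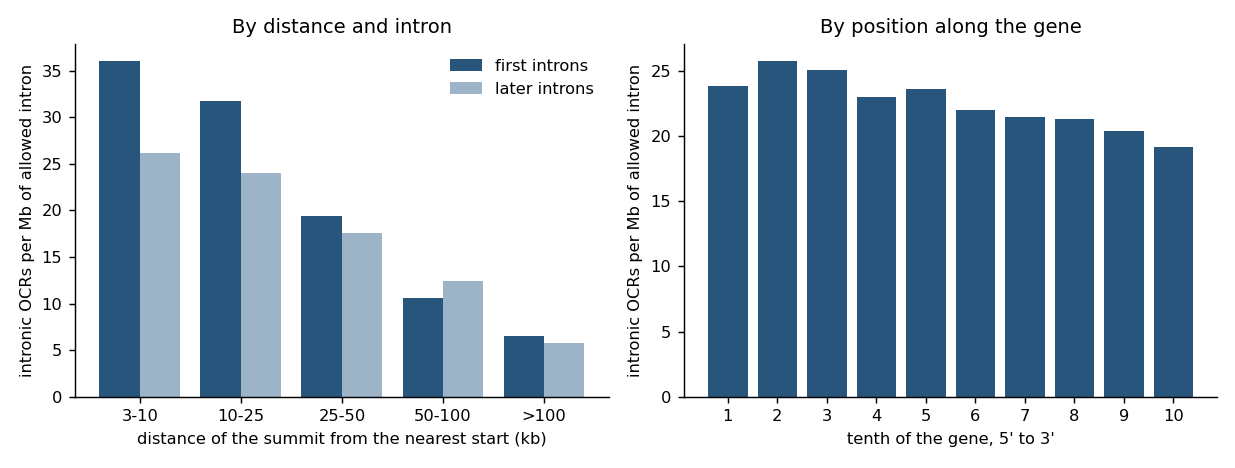
Members per Mb of intron sequence that the rule allows, by distance of the summit from the nearest transcript start for first (with single) and later introns (left), and by bin of gene length, 10 equal bins from the 5′ to the 3′ end (right). Density falls from 36.1 to 6.51 per Mb in first introns and from 26.1 to 5.81 in later introns.

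Autosomes differed in density. Chromosome 17 held 35.0 members per Mb of allowed intron, chromosome 8 29.8 and chromosome 11 27.9, and chromosome 3 was the lowest at 18.6. The median intensity of a chromosome relative to the library's median was between 0.94 and 1.07 on average over libraries. Chromosome 17 stood at 1.00 ± 0.03 (SD, n = 7).

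The members fell in 5593 of the 15149 autosomal coding genes with allowed intron sequence (36.9%), and 938 genes (6.19%) held at least 5. One member each was found in 2612 genes, 2 to 4 in 2043, at least 10 in 273 and at least 20 in 55. More than 1 gene held 438 of the members.

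The genes with the most members were long gene models. Gm20388 came first with 200, but its model in M21 spans 4435 kb of chromosome 8 and covers whole genes such as Usp10 and Gse1, with which it shared 88 members. Fgfr2, a fibroblast growth factor receptor, had 51 over a model of 2961 kb that also covers Ate1 and Tacc2, among other genes, and shared 27. These were the only 2 models over 2.5 Mb, and without them 16020 members would remain. Gm37240 (37, of which 20 shared) and Foxp1 (32, of which 16 shared with the Gm20696 model) also overlapped other genes.

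Among single-gene models, Pde4d, a cyclic AMP phosphodiesterase, had 54 members in 1504 kb. Arid1b, a subunit of the SWI/SNF chromatin remodelling complex, had 44 in 353 kb, and Prkce, protein kinase C epsilon, had 39 in 490 kb. Cdkal1, a tRNA-modifying enzyme, had 33, Psd3 31 and Prkg1, the cyclic GMP-dependent kinase, 30. Per kb of allowed intron, Arid1b held 0.135 members and Pde4d 0.0386.

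Arid1b showed how unequal the members of a single gene were. Its 44 members at chr17:4994332-5347656 lay from 11.2 to 337 kb from the 5′ end and had mean intensities of 3.70 to 55.0, with a median of 6.32. Intron 4 held 19 of them. The strongest, at chr17:5224741-5225966 in this intron, had 55.0 ± 11.6, with a lowest value of 36.6 and a highest of 67.1, and its summit carried GATA, composite and RUNX matches. Other strong ones had 38.3 ± 8.35 and 36.0 ± 10.0.

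By members per kb of gene, among genes with at least 5, the 10 densest genes spanned 29.4 to 54.4 kb. Zbtb9, a zinc finger gene, and Bpgm, the enzyme that makes 2,3-bisphosphoglycerate in red cells, had 0.170 each, from 6 and 5 members. All 6 of Zbtb9 also lay in Ggnbp1. Maml1, a Notch coactivator, had 0.164 from 6 members, and Rps14, a ribosomal protein gene, 0.159 from 5. Slc38a11, Dnajc15, Prr5, Ralb and Lpcat3 had 0.147 to 0.145. The median over genes with at least 5 was 0.0492. Ranked by kb of allowed intron instead, 7 of the first 10 stayed among the first 10.

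In Slc38a11, an amino acid transporter gene, the strongest of 7 members had 93.2 ± 16.1. In Maml1 the library medians of its members were 14.4 ± 3.64 and the means of the members 4.79 to 19.5. In Bpgm no member exceeded 11.4.

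Gene lists differed widely in how densely their introns were covered. Of 23 hematopoietic transcription factor genes with allowed intron, 17 (73.9%) held a member, against 36.9% of all genes, and the list had 56.7 members per Mb against 22.6 over all genes. The cytokine receptor and signalling genes (18 of 28 genes, 64.3%) had 55.9 per Mb and the chromatin regulators (22 of 30, 73.3%) 55.0. Arid1b alone held 44 of the 120 members of the chromatin regulators, in 325 kb of that list's 2.18 Mb. Runx2 held 20 of the 130 members of the hematopoietic transcription factors, and Dock2 17 of the 102 of the signalling genes. The myeloid and mast cell genes (6 of 13) had 46.1, and the erythroid and megakaryocyte genes (5 of 13) 24.3, close to the level over all genes. The allowed intron sequence per gene was longer in 4 of these 5 lists than over all genes. Its median was 56.1 kb in the hematopoietic transcription factors, 51.2 kb in the chromatin regulators and 34.8 kb in the signalling genes, against 14.8 kb over all genes, while it was 7.56 kb in the myeloid and mast cell genes and 16.5 kb in the erythroid and megakaryocyte genes. The part of length in the shares of genes was not tested. Lymphoid genes (9 of 20) had 8.48, muscle, heart and liver genes (8 of 20) 7.91 and neuronal genes 2.34 per Mb.

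For neuronal genes the share of genes was high, with 17 of 25 (68.0%), while the density was low. Their median allowed intron sequence per gene was 1012 kb against 14.8 kb over all genes. Over all genes, density beyond 100 kb from a start was 5.83 per Mb. The part of distance in the low density of this list was not tested, and the lists were compared by counts only.

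**Figure D4:**
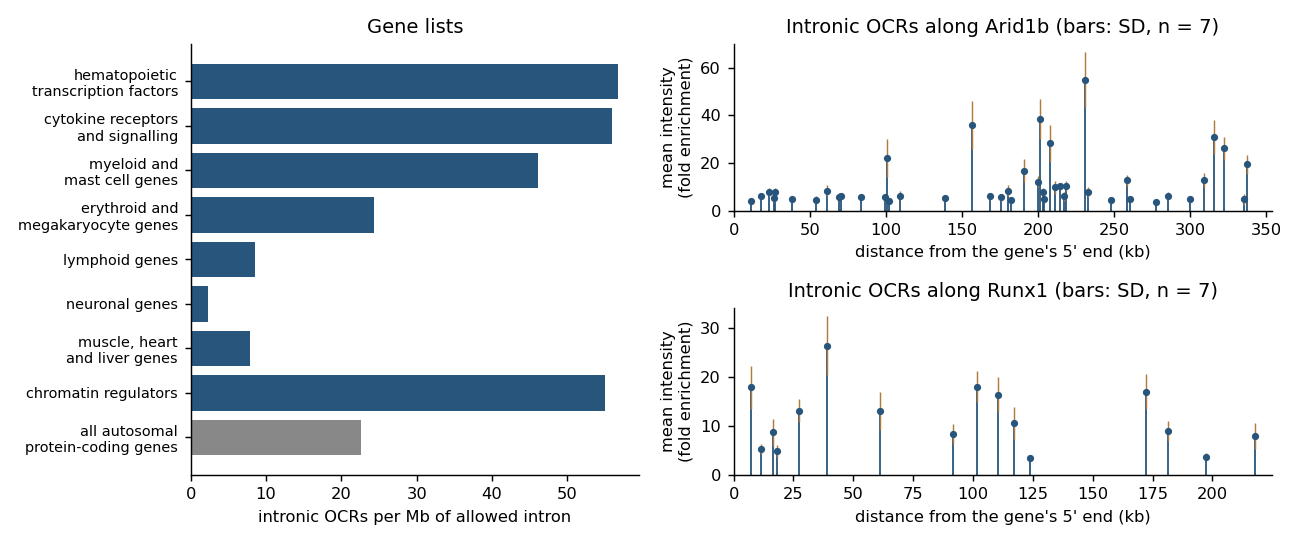
Left: members per Mb of allowed intron for 8 gene lists and for all autosomal coding genes (grey). Right: the members along Arid1b and Runx1 by distance from the 5′ end of the gene, with mean intensity and SD over 7 libraries; the strongest of Arid1b reached 55.0 and of Runx1 26.4.

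Among the hematopoietic transcription factors, Runx2 held 20 members (2 of them shared with Supt3), Etv6, an ETS repressor, 19, and Runx1, a master regulator of blood stem cells, 16. In Runx1, chr16:92601466-92826149, 12 of the 16 lay in intron 2. Their gene-wide mean intensities were 3.50 to 26.4. The strongest, at chr16:92786705-92787626, had 26.4 ± 6.05, a lowest value of 16.7, a median of 24.3 and a highest of 34.5, and lay 39.0 kb from the 5′ end.

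Ikzf1, which encodes Ikaros, had 11 members in 87.9 kb and a high median of 21.5. The strongest had 47.9 ± 12.9 and lay in intron 3 at chr11:11729853-11730965. Spi1, which encodes PU.1, had 2 members, at 32.6 ± 6.31 and 3.71 ± 0.80. Lmo2, a bridging factor of the TAL1 complex, had 1 at 26.8 ± 3.03, and Gfi1, a zinc finger repressor, 1 at 9.16 ± 1.52. A count of 0 can follow from the rule alone: Gata2 and 6 others of this list have no intron sequence beyond 3 kb from a start and outside exons.

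Of the signalling genes, Dock2, a Rac activator of blood cells, held 17 (7 of them shared with Fam196b), Jak1, a cytokine receptor kinase, 14, and Plcg2, a phospholipase, 12. Jak1 had 14 in 113 kb, and 9 of them lay in its first intron. The strongest, at chr4:101191794-101193078 in intron 2, had 64.3 ± 13.1 with GATA and composite matches. Kit, the stem cell factor receptor, had 4 members, with means between 4.77 and 8.13, all below the median of 8.30 over all members.

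The median gene held no member in the myeloid, erythroid, lymphoid and muscle, heart and liver lists, and 2 in the chromatin regulators. Over all genes with allowed intron sequence the median was also 0. Alox5, a leukotriene enzyme, led the myeloid and mast cell genes with 3, and 5 genes had 1 each, among them Cpa3, the mast cell carboxypeptidase. Epb41, a red cell membrane skeleton protein, led the erythroid list with 7, followed by Nfe2l2 and Rhag with 2 each. In the lymphoid list Blk, a B cell kinase, had 2, and 7 genes had 1 each, including Pax5 (6.55) and Gata3 (6.56). Arid1b, Hdac4 (13) and Jmjd1c (10) led the chromatin regulators, and Cacna1c (5), Abcc2 (4) and, level with 2 other genes, Hnf4a (2) the muscle, heart and liver genes.

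Of 8 neuronal genes with 1 member, Lrp1b had the strongest. Lrp1b, a large lipoprotein receptor gene listed as neuronal, had 1 member in 1969 kb of allowed intron. At 80.1 ± 14.9 (SD, n = 7) it was lowest in HPC7-6 with 54.0 and highest in HPC7-4 with 96.2, and it lay 383 kb from any start. Its sequence is the composite example printed above, and the summit window held ETS, GATA, RUNX and AP-1 matches as well. The other 7 neuronal genes with 1 member had means of 4.32 to 15.1, and 5 of them lay below the median of 8.30. Csmd1, another neuronal gene, had 13 with a median of 15.5, of which 11 lay in its first intron and the strongest had 113 ± 28.3. Dlg2, a synaptic scaffold gene, had 8.

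Motifs were counted within 100 bp of the summit on both strands. ETS matches were found in 31.0% of members, RUNX in 31.9%, GATA in 18.1%, AP-1 in 13.2%, CTCF in 5.55% and the composite in 4.85%. ETS, GATA and RUNX occurred together in 251 members (1.55%), and 6125 (37.9%) had none of these 3. A composite match ends in GATA and can overlap a GATA match.

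In 13749 windows of the same length placed 2 kb from members and free of OCRs, ETS matches were found in 17.4%, RUNX in 15.1%, GATA in 11.5%, AP-1 in 5.31%, the composite in 1.80% and CTCF in 0.0509%. These windows had a median GC content of 44.3% against 48.8% in members, whose part in the difference was not tested. Over all 142262 merged autosomal OCRs the shares were 28.1% for ETS, 27.0% for RUNX, 13.7% for GATA, 11.4% for AP-1, 3.63% for the composite and 4.16% for CTCF. Intronic OCRs in 1 library had less of each than the members, for example 1.12% CTCF and 12.3% GATA. Distal intergenic OCRs in all lists carried CTCF more often, at 9.02%, and the other motifs at shares near those of the members. Promoter OCRs had 13.2% GATA and 28.5% ETS.

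Members were split by mean intensity into 5 bins of equal number. The strongest bin, from 16.2 upwards, held more of 5 motifs than the weakest. The shares were 35.4% against 28.3% for ETS, 36.8% against 27.7% for RUNX, 15.3% against 12.0% for AP-1, 22.2% against 17.5% for GATA and 7.09% against 4.42% for the composite. GATA and the composite were higher in the strongest bin only, with 16.6% to 17.5% and 3.81% to 4.55% in the other 4 bins. CTCF was highest in bin 4 at 7.37% and stood at 4.15% in the strongest. Median width also rose, from 483 to 967 bp. These shares use the values that chose the members and carry no test.

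Promoter OCRs here are those within 3 kb of a transcript start, and distal intergenic OCRs those beyond 3 kb and outside all genes. Both had the same width limit of under 1500 bp as the intronic OCRs, so wider OCRs were left out of each group. For tests, each library was left out in turn, OCRs were rebuilt by the same rule from the other 6 lists, and they were then read in the library left out. This gave 16198 to 18440 intronic OCRs per rebuild. Differences were tested over the 7 libraries by an exact sign-flip permutation test, two-sided, adjusted over 12 tests after Benjamini-Hochberg. The smallest p that 7 libraries allow is 0.0156, and 0.0312 was the smallest adjusted value here. With any 1 library left out of the test, none of the 12 passed, and the smallest adjusted p was 0.0625. The libraries read nearly the same regions, and the rebuilt sets share lists, so the test speaks only of the spread between libraries for these regions.

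A library left out had a peak at 97.1% ± 4.33 (SD, n = 7) of the rebuilt intronic OCRs. The share was lowest in HPC7-6 at 87.9% and highest in HPC7-1 at 99.98%. Distal intergenic OCRs gave 97.2% ± 3.80, a difference of -0.157 ± 1.01 percentage points (exact permutation p = 0.516, adjusted 0.562, n = 7), with intronic lower in 6 of 7 libraries. Promoter OCRs gave 97.7% ± 3.06, a difference of -0.608 ± 1.31 (exact permutation p = 0.297, adjusted 0.396, n = 7), lower in 5 of 7. In HPC7-6 this difference was -3.46 points. Neither difference passed the threshold of 0.05. Without 1 library in turn, the mean difference was -0.252 to -0.0593 points against distal intergenic OCRs and -0.927 to -0.547 against promoter OCRs.

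Intensity in the library left out was lower in introns than at promoter OCRs of under 1500 bp. The medians were 8.25 ± 1.73 and 9.31 ± 2.10, a log2 ratio of -0.17 ± 0.06, or 0.888-fold (exact permutation p = 0.0156, adjusted 0.0312, n = 7). The ratio was below 0 in all 7 libraries, between -0.29 and -0.10. Against distal intergenic OCRs, at 8.55 ± 1.67, the log2 ratio was -0.06 ± 0.05 and below 0 in 6 of 7 (exact permutation p = 0.0469, adjusted 0.0804, n = 7), which did not pass.

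Position within the gene went with small differences in intensity. OCRs in first introns had a median of 8.01 ± 1.74 and those in later introns 8.33 ± 1.74. The log2 ratio of -0.06 ± 0.03, or 0.959-fold, was below 0 in 7 of 7 libraries (exact permutation p = 0.0156, adjusted 0.0312, n = 7). It was smaller and did not pass with stricter peaks (-0.0252) or lists of equal length (-0.0284), and it was -0.0360 without HPC7-2 and -0.0397 without HPC7-5. OCRs at 3 to 10 kb from a start and those beyond 50 kb had 8.26 ± 1.76 and 8.28 ± 1.66, with a log2 ratio of -0.01 ± 0.08 (exact permutation p = 0.844, adjusted 0.844, n = 7) that ranged from -0.10 to 0.12 and whose mean turned to 0.0264 without HPC7-5 and 0.00147 without HPC7-2.

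OCRs with hematopoietic motifs were slightly more intense in the library left out. The composite gave the largest of the 6 motif ratios, with medians of 9.42 ± 1.94 and 8.20 ± 1.76 with and without it. The log2 ratio was 0.20 ± 0.04, or 1.15-fold, and lay between 0.13 and 0.25 in the 7 libraries (exact permutation p = 0.0156, adjusted 0.0312, n = 7). RUNX matches went with 0.14 ± 0.04 (1.10-fold), ETS with 0.11 ± 0.02 (1.08-fold) and GATA with 0.09 ± 0.04 (1.06-fold). Each of these was above 0 in 7 of 7 libraries, with the same exact permutation p and adjusted value as the composite. The ETS ratio was 0.0686 without HPC7-6.

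AP-1 matches gave 0.08 ± 0.09, above 0 in 4 libraries and exactly 0 in the other 3, namely HPC7-6, HPC7-7 and HPC7-8 (exact permutation p = 0.125, adjusted 0.188, n = 7). Intensities move in steps of 1 read, so medians can tie, as in these 3 libraries. Some signs counted in 7 of 7 libraries rest on a gap of 1 read. Examples are GATA in HPC7-8 (10.63 with against 10.49 without) and introns in HPC7-1 (9.83 in first against 9.87 in later). CTCF matches gave 0.04 ± 0.15 (exact permutation p = 0.484, adjusted 0.562, n = 7), with values from -0.15 in HPC7-1 to 0.24 in HPC7-6, so the libraries differed in sign. The mean turned to -0.0129 with motifs within 50 bp of the summit and to -0.0254 with stricter peaks, and it was 0.123 without HPC7-6, 0.0769 without HPC7-1 and 0.0195 without HPC7-5. OCRs with and without a motif were not matched for width or GC content, whose part was not tested.

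**Figure D5:**
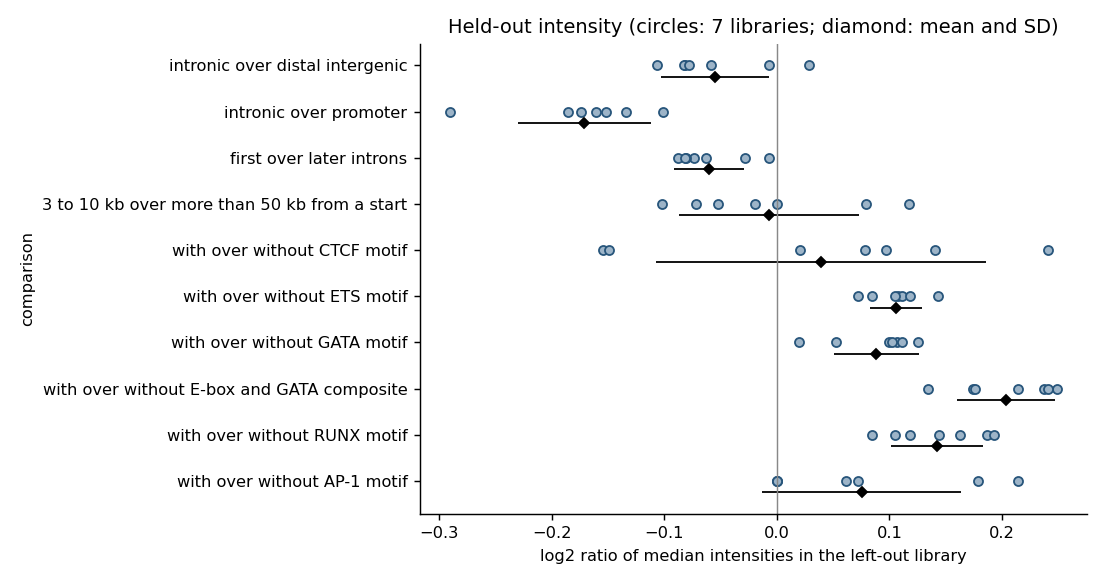
Log2 ratio of median intensities in the library left out, for 10 comparisons; circles are the 7 libraries and the diamond with its bar is their mean and SD. The ETS, GATA, composite and RUNX comparisons lie above 0 in every library, and the promoter and first-intron comparisons below 0 in every library.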

How the data were processed

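ATAC-seq libraries of 7 HPC7 cultures were analysed from the deposited peak lists. To make them, the authors used Cutadapt for adapter removal, BWA-mem for alignment (mm10) and MACS2 for peaks of each library on its own, versions and options not given in the sources used here. Columns of the deposited lists hold a ratio (fold enrichment at the summit, here intensity), -log10 of the p-value and of the q-value, and a score not used here. Peak names hold the word shift, but whether reads were moved to the Tn5 insertion site is not given in the sources used here.

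OCRs were built and placed with Python 3.11.15, numpy 2.4.6, pandas 2.3.3 and GENCODE M21. Tests were run with numpy, and their adjustment was checked against scipy 1.17.1. Sequence came from RefSeq GRCm38.p6, read with pysam 0.24.0, and matches elsewhere from blastn 2.17.0 (100 bases, 90% identity). Repeat-masked bases could not start a match elsewhere. An OCR without a peak in the library left out counted as 0. Scripts were tested on simulated data. Introns are those of the longest coding transcript. Sequences were shown only for OCRs outside chromosome 18.

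Named were the 10 genes with most OCRs, the 10 densest per kb with at least 5, the 10 highest and 5 lowest OCRs, and the 3 leading genes of each list. Some genes that this rule names are not reported here. Other genes named were chosen after their values were seen. Members and lists were chosen with earlier results of these data known. Alternatives changed peak threshold, list length, merging, width, distance, exons, motif window and libraries. The lists give no total read depth, which limits precision.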

Additional observations from a re-analysis of the deposited data

Results flagged for a closer look

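Each measure with 1 value per library was checked for a library far from the other 6 by the gap to its neighbour over the whole range (Dixon's ratio). Of 43 such measures 8 passed the 95% limit, and chance alone passes about 1 in 20. In 5 of them HPC7-1 stood high on measures of depth: 20.4 background reads at the summits (4.44 to 7.45 in the others), 201.5 reads at the summit of the median member (36 to 71), 91 reads at the 5th percentile of members (19 to 33), 46 reads at the lowest member (13 to 19), and a median -log10 p of 124 (18.3 to 51.0). These measures share the read depth and are not independent. The Mylip OCR, mostly repeat-masked, was also highest in HPC7-1, with an intensity of 382 against 199 to 263.

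HPC7-6 stood apart in 2 measures. It was the library without a peak for 2239 of the intronic OCRs found in 6 lists (4 to 590 for the others). When it was left out, its detection of intronic OCRs was -3.46 percentage points relative to promoter OCRs, against -0.868 to 0.335 in the other libraries. HPC7-6 had the shortest list and the lowest median intensity. The part of depth or sample quality in these values was not tested.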

How the results depend on the processing

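Of 154 alternative values, 106 kept their side of the threshold or stayed close in size. Closeness was broad for counts: the 12010 members with a peak over 50% of the OCR in every list were taken as close to 16156. Among the 106, the CTCF ratio and the ratio of 3 to 10 kb over more than 50 kb changed sign under some alternatives. Most of the other 48 were the 6 passing tests repeated without 1 library, where the floor on p given below applies. Counting only OCRs more than 10 kb from a start gave 9072 members. The median by the -log10 p column was 46.7, which is in another unit. Over OCRs with a peak in the left-out library only, the intronic to distal intergenic log2 ratio was -0.0549 (adjusted p = 0.0446, exact permutation), past the threshold. The first to later intron ratio was -0.0252 with peaks of -log10 q of at least 5 (adjusted p = 0.188, exact permutation) and -0.0284 with lists of equal length (adjusted p = 0.107, exact permutation), and AP-1 reached 0.0941 with the stricter peaks (adjusted p = 0.0312, exact permutation). The causes were not tested. Without 1 library in turn, members numbered 16198 to 18440 and their median was 7.85 to 8.33. The log2 ratios were then -0.22 to -0.17 over promoters, -0.0557 to -0.0360 for first introns, 0.0686 to 0.107 for ETS, 0.0823 to 0.108 for GATA, 0.18 to 0.23 for the composite and 0.14 to 0.15 for RUNX. With 6 libraries the smallest exact permutation p is 0.0312, the smallest adjusted p reached was 0.0625, and none of these 6 passed the threshold. The first-intron ratio had an adjusted p of 0.0625 without HPC7-6 or HPC7-7 and of 0.0938 to 0.125 without any other library. Leaving out the gene models over 2.5 Mb, chosen after seeing the data, gave 16020 members. No paired analysis was possible because all libraries form 1 group, so no replicate numbers are shared between groups. The region classes themselves were compared within each library.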
